A study of Mus musculus with 18 samples.

Results

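Hematopoietic progenitor and stem cell fractions (HPSC), sorted as positive for both CD31 and Kit, were divided by a reporter of BMP signalling, and the BRE-GFP positive fraction was set against the BRE-GFP negative fraction. The libraries were chosen by their labels alone: 3 BRE-GFP positive and 3 BRE-GFP negative HPSC libraries, 6 of the 18 libraries of the series, which form 3 pairs by culture. All came from the aorta-gonad-mesonephros region (AGM) of C57BL6 mouse embryos of the BRE-GFP reporter strain at embryonic day 11. The fresh pair was sorted straight after dissection. The explant pair was sorted after culture of the AGM with BMP and Hedgehog, and the cyclopamine pair after such culture with cyclopamine, which blocks Smoothened, the transducer of Hedgehog signals. The other 12 libraries, divided and cultured in the same ways, are endothelial cells (EC, CD31 positive and Kit negative) and mesenchymal cells (MC, negative for both). Each combination has 1 library, and nothing in the labels says whether libraries came from separate embryos or sorts, so the p-values below measure only the spread between these libraries, part of which may be technical.

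BMP ligands bind paired type I and type II serine/threonine kinase receptors, which phosphorylate Smad1, Smad5 and Smad9; these enter the nucleus with Smad4 and switch on genes such as those of the Id family. The BRE (BMP response element) of the reporter is a sequence derived from the Id1 promoter, so GFP marks cells in which this branch has acted. In the AGM, hematopoietic stem cells arise from endothelium of the dorsal aorta, which buds off clusters of cells that carry endothelial and blood markers together, and CD31 and Kit are found on those clusters but also on primordial germ cells.

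The 6 HPSC libraries held 3041249 to 15760271 counts assigned to genes, and the fewest were in the negative cyclopamine library. Between 10297 and 18155 of the 21881 gene symbols were detected. The share of reads that fell on no feature was larger in the positive library of every pair: 36.6% in positive against 21.7% in negative fresh HPSC, 43.3% in positive against 35.0% in negative explant HPSC and 25.8% in positive against 19.5% in negative cyclopamine HPSC. Kit, the receptor used in the sort, stood at 690.2, 815 and 885 CPM (the depth-scaled count, with TMM-adjusted library totals) in positive fresh, explant and cyclopamine HPSC, against 646, 1135 and 449.9 CPM in negative HPSC, which overlap (log2 fold change 0.20 ± 0.53 (SE), edgeR adjusted p = 0.961). Genes listed as progenitor surface markers were present in both fractions: the 18 genes summed to 3657, 4819 and 5243 CPM in positive HPSC, in the same order of cultures, against 3221, 4336 and 3672 CPM in negative HPSC. The sums mix members that lay on different sides. Cd34 and Cd93, also found on endothelium, were higher in positive HPSC in each pair, and Spn (CD43) was lower in each pair. Similar sums therefore do not show a similar content of blood progenitors. In the text below, 3 values for a fraction always follow the order fresh, explant, cyclopamine. In bulk samples such as these, fewer cells of a type and less RNA per cell cannot be told apart.

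Few genes separated BRE-GFP positive from negative HPSC beyond the spread between cultures. In the test over all genes, 6 of 16231 tested genes passed at an adjusted p under 0.05 (0.0370%; edgeR quasi-likelihood test, Benjamini-Hochberg). All 6 rose in BRE-GFP positive HPSC: Clec1a, Klhl4, Arhgap31, Bgn, Nid1 and Mest. The 6 encode a lectin receptor, a kelch-like protein, a regulator of small GTPases, 2 matrix proteins and an imprinted hydrolase-like protein. None passed in the other direction (0%; DESeq2 called 204 lower genes and limma-voom 8). At an unadjusted p under 0.05 stood 1234 genes (7.60%), 932 of them higher (5.74%) and 302 lower (1.86%) in positive HPSC. No gene passed when any 1 of the 6 HPSC libraries was left out in turn (lowest edgeR adjusted p 0.118 to 0.238), without both cyclopamine libraries or with the share of reads on no feature as a covariate, although all 6 genes kept their direction in each of these fits.

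Clec1a, a C-type lectin receptor of endothelium and myeloid cells (chromosome 6, 129424772 to 129452000, minus strand), was close to all or nothing. Its level was 97.3, 105 and 43.5 CPM in positive HPSC, against 0, 0.159 and 0 CPM in negative HPSC. The 3 negative libraries held 2 reads of Clec1a in all and the 3 positive ones 2859, a ratio of 1065 per read sequenced (95% interval 295 to 8799, counting error only; fitted log2 fold change 10.43 ± 1.58 (SE), edgeR adjusted p = 0.0416). Klhl4, a kelch-like protein gene (chromosome X, 114474333 to 114560829, plus strand), stood at 1084, 295 and 216 CPM in positive HPSC, against 13.3, 14.4 and 8.67 CPM in negative HPSC. The lowest positive library was thus far above the highest negative one, and the log2 fold change was 5.11 ± 0.68 (SE), with an adjusted p of 0.0358 by edgeR. The locus of Klhl4 holds a processed pseudogene on the same strand, as does that of Arhgap31, and neither pseudogene is among the counted symbols.

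Arhgap31, which encodes a GTPase-activating protein for Cdc42 and Rac1 (chromosome 16, 38598340 to 38713274, minus strand), stood at 319.9, 192 and 107 CPM in positive HPSC, against 17.2, 16.4 and 4.90 CPM in negative HPSC (log2 fold change 4.06 ± 0.59 (SE), edgeR adjusted p = 0.0358). Both Klhl4 and Arhgap31 were highest in the positive fresh library and lowest, within the positive fraction, after cyclopamine. Bgn, which encodes the matrix proteoglycan biglycan (chromosome X, 73483602 to 73495933, plus strand), stood at 363, 60.6 and 55.6 CPM in positive HPSC, against 20.3, 3.81 and 4.53 CPM in negative HPSC (log2 fold change 3.94 ± 0.55 (SE), edgeR adjusted p = 0.0358). Its level differed between cultures within each fraction as well, and the fresh library was the highest of both fractions.

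Nid1, which encodes nidogen, the link between laminin and type IV collagen networks of basement membranes (chromosome 13, 13437551 to 13512269, plus strand), stood at 436, 525 and 287 CPM in positive HPSC, against 73.0, 86.8 and 27.9 CPM in negative HPSC (log2 fold change 2.84 ± 0.43 (SE), edgeR adjusted p = 0.0416). Mest, the mesoderm-specific transcript, an imprinted gene expressed from the paternal allele (chromosome 6, 30723547 to 30748465, plus strand), was abundant in both fractions. It stood at 2362, 1629 and 1204 CPM in positive HPSC, against 329.9, 268 and 326 CPM in negative HPSC (log2 fold change 2.45 ± 0.35 (SE), adjusted p = 0.0358 by edgeR). The annotated Mest locus overlaps Copg2 on the opposite strand, whose level was 50.1, 84.0 and 80.4 CPM in positive HPSC, against 46.2, 58.0 and 107 CPM in negative HPSC, higher in positive HPSC in 2 of 3 pairs. Whether reads were assigned by strand is not given in the sources used here, so reads of overlapping genes may be mixed.

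**Figure D1:**
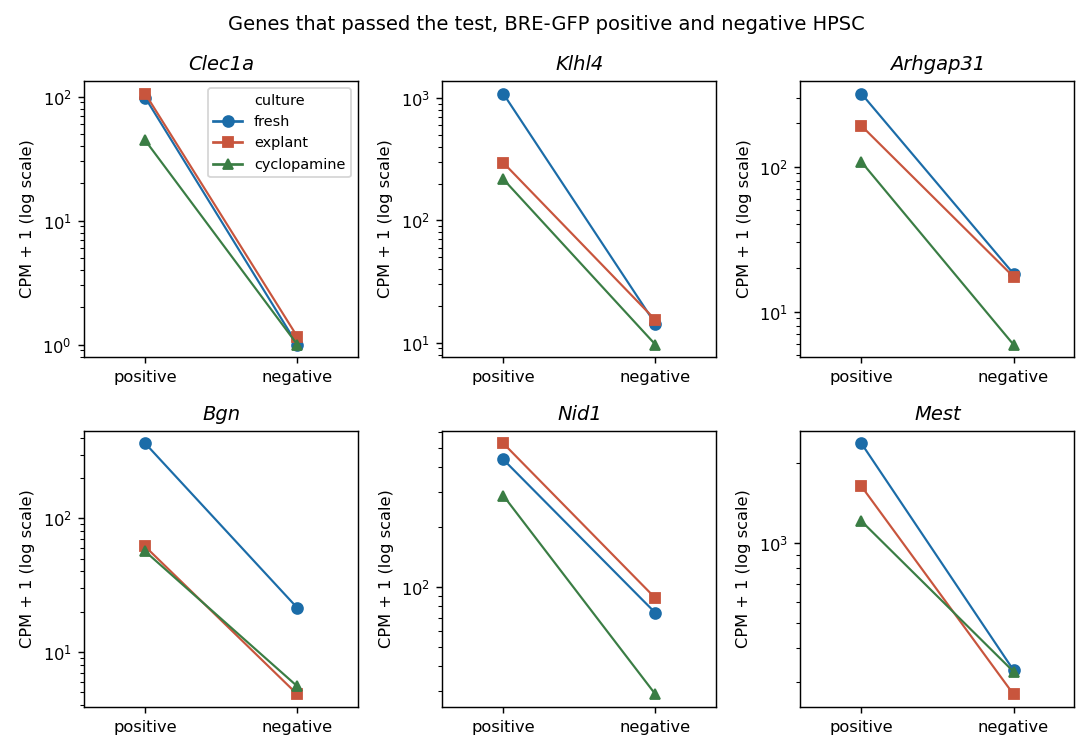
Level in CPM plus 1 (log axis) of the 6 genes that passed, in BRE-GFP positive (left) and negative (right) HPSC; each line joins the 2 libraries of 1 culture. In every panel all 3 positive libraries lie above all 3 negative libraries, and the negative libraries of Clec1a lie at or next to 0 CPM.

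Promoters are shown for 3 of the genes described here that hold the GC-rich letters GGCGCC, a form of the element that BMP SMADs bind in the BRE: Mest and Flt4, higher in positive HPSC, and Id2, a BMP target gene that was lower. The windows are from RefSeq on GRCm38.p6, run 5′ to 3′ on the gene's strand and span 250 bases before to 50 after the start site, with the motif in capitals. They lie at chr6:30737800-30738099 (plus strand), chr11:49609429-49609728 (plus strand) and chr12:25096043-25096342 (minus strand).
Mest: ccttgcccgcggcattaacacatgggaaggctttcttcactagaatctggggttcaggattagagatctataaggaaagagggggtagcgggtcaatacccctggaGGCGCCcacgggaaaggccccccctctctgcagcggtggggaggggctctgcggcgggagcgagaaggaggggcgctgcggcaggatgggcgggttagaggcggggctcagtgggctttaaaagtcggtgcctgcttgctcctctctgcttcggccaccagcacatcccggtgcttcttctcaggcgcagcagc
Flt4: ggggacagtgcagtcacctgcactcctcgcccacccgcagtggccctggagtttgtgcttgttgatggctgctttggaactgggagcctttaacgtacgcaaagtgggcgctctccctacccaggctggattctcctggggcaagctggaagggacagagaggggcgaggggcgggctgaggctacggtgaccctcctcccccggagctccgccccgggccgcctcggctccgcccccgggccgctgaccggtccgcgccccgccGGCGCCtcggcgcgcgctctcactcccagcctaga
Id2: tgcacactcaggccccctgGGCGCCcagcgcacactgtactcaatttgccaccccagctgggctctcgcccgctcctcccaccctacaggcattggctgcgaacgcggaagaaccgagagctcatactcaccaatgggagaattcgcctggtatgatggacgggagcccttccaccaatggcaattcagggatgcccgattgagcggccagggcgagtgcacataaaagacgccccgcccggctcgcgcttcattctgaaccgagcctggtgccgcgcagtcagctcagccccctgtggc
The motif lay 144 bases before the start site in Mest, 231 bases before it in Id2 and from base 15 after it in Flt4. GGCGCC reads the same on both strands, and it stood in a window of 13.4% of all 27025 genes (11.9% of 32851 windows). Of the 10 higher genes named in the text that had a window, 2 held it, and of the 13 lower ones 4 did (Rimklb, Pmm1, Id2 and Emb). A second motif, TGTGGT, the core letters bound by RUNX factors, searched on both strands, stood in a window of 18.9% of all genes (16.8% of windows). It stood in 1 of the 10 higher genes, Klhl4, and in 6 of the 13 lower genes, Stfa1, Gpat2, Plac8, S100a9, Srgn and Arhgdib. Such matches describe the letters of these windows and are not binding sites.

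Another 9 named genes, among them endothelial and signalling genes, did not pass. They were chosen by low p and the same direction in 3 of 3 pairs of these libraries, which favours fractions that do not overlap. In each, the lowest positive library lay above the highest negative one, as in 7.65% of all tested genes. Flt4, the receptor for VEGF-C on lymphatic and venous endothelium, stood at 427, 195 and 87.1 CPM in positive HPSC, against 0.969, 6.44 and 4.90 CPM in negative HPSC (log2 fold change 5.75 ± 0.96 (SE), edgeR adjusted p = 0.0640). Ptrf, which encodes the caveola coat protein cavin-1, stood at 930.1, 3265 and 1994 CPM in positive HPSC, against 62.6, 306 and 673 CPM in negative HPSC (edgeR adjusted p = 0.0640). Vwf, the clotting factor stored in endothelial cells and platelets, stood at 266, 157 and 128 CPM in positive HPSC, against 18.5, 18.9 and 16.2 CPM in negative HPSC (edgeR adjusted p = 0.117). As a ratio the gap was widest in the fresh pair for all 3 genes, and the negative level of Ptrf was highest after cyclopamine. Plk2, a polo-like kinase gene, had a log2 fold change of 2.84 ± 0.46 (SE) (edgeR adjusted p = 0.0602), and Cd38, a surface enzyme that consumes NAD, one of 2.69 ± 0.48 (SE) (edgeR adjusted p = 0.0896). Also named were the phosphatase gene Dusp3 (2.24), Pea15a, a regulator of ERK location (2.02), the acyltransferase gene Agpat4 (3.43) and Fam198b (4.12), all as log2 fold changes with edgeR adjusted p of 0.0789 to 0.117.

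Endothelial genes as a list were higher in positive HPSC, though no single one passed. Of 21 pan-endothelial genes, all tested, 0 passed over all genes and 18 were higher at an unadjusted p under 0.05, against 5.74% of all tested genes. All 3 positive libraries lay above all 3 negative ones for 19 of the 21, against 7.65% of tested genes, and 13 were more than 2-fold higher in each of the 3 pairs, against 2.27%. The median log2 fold change was 3.14 for the list and 0.23 for all tested genes, and every member had a fold change above 0. Kdr, the main VEGF receptor of endothelium, stood at 1008, 505 and 379 CPM in positive HPSC, against 17.5, 75.0 and 10.6 CPM in negative HPSC (log2 fold change 4.62 ± 0.88 (SE), edgeR adjusted p = 0.117). Clec14a, a lectin of vessel sprouting, stood at 257, 222 and 145 CPM in positive HPSC, against 0.0969, 29.2 and 0.754 CPM in negative HPSC (edgeR adjusted p = 0.248). Sox7, a transcription factor of endothelium and its precursors, stood at 198, 182 and 143 CPM in positive HPSC, against 0.0969, 23.6 and 1.51 CPM in negative HPSC (edgeR adjusted p = 0.327). For these 3 genes all positive libraries lay above all negative ones, and of the negative libraries the explant one held the most.

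The separation was not equally wide for every endothelial gene. Cdh5, the cadherin of endothelial junctions, stood at 579, 832 and 385 CPM in positive HPSC, against 12.5, 91.6 and 235 CPM in negative HPSC, so that the cyclopamine pair was the closest (edgeR adjusted p = 0.353). Pecam1, which encodes CD31 and is a gene of the gate, stood at 1472, 2682 and 1034 CPM in positive HPSC, against 212, 420.0 and 435 CPM in negative HPSC (log2 fold change 2.25 ± 0.63 (SE), edgeR adjusted p = 0.353). Ecscr and Icam2 were the members whose fractions overlapped: after cyclopamine, Ecscr stood at 325 CPM in the positive library, against 505 CPM in the negative one, and Icam2 at 261 CPM in the positive library, against 377 CPM in the negative one. Summed over the 21 genes, positive HPSC held 9022, 11482 and 4982 CPM, against 494, 1462 and 2811 CPM in negative HPSC. The negative sum was thus lowest in fresh cells and highest after cyclopamine, while the positive sum was lowest after cyclopamine. In the same libraries the hematopoietic CD45 gene Ptprc, the granulocyte list and the germ cell list, given below, lay mostly on the other side, and their part in the endothelial difference was not tested.

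Genes of the basement membrane, the sheet of laminin, nidogen and type IV collagen under endothelium, lay on the same side. Of 10 such genes, 1 passed over all genes (Nid1), 9 were higher at an unadjusted p under 0.05 (5.74% of all tested genes) and 9 did not overlap between fractions (7.65%), with a median log2 fold change of 2.76. Lamc1, the laminin gamma 1 chain, stood at 351, 419.9 and 376 CPM in positive HPSC, against 94.4, 63.7 and 9.05 CPM in negative HPSC (log2 fold change 3.22 ± 0.63 (SE), edgeR adjusted p = 0.117). Hspg2, which encodes perlecan, stood at 166, 80.0 and 79.7 CPM in positive HPSC, against 5.62, 27.5 and 4.53 CPM in negative HPSC (edgeR adjusted p = 0.279). In both genes the lowest positive library was well above the highest negative one. Sparc, a collagen-binding matrix protein, reached 10039 CPM in the positive explant library, against 927 CPM in its negative partner. Fibronectin (Fn1) was the member that overlapped, at 768, 324 and 358 CPM in positive HPSC, against 501, 221 and 27.9 CPM in negative HPSC.

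Arterial and venous lists both had medians above that of all genes. Of 18 arterial genes, 11 were higher at an unadjusted p under 0.05 and 0 lower (5.74% and 1.86% of all tested genes), with 7 that lay higher without overlap (7.65%) and a median log2 fold change of 2.52. Notch1, the receptor that acts in arterial fate and in hemogenic endothelium, stood at 397, 333 and 213 CPM in positive HPSC, against 68.5, 107 and 79.6 CPM in negative HPSC (log2 fold change 1.86 ± 0.50 (SE), edgeR adjusted p = 0.312). Its fractions did not overlap in any culture. Dll4, a Notch ligand of arteries, stood at 39.6, 398 and 201 CPM in positive HPSC, against 0.0969, 36.7 and 158 CPM in negative HPSC, and the cyclopamine pair was close. Gja5, a gap junction gene of arteries, was nearly absent from fresh cells of both fractions, at 6.46, 596 and 413 CPM in positive HPSC, against 9.69, 39.9 and 336 CPM in negative HPSC (edgeR adjusted p = 0.789). For both genes the positive cyclopamine level was less than 1.5 times the negative one. Of 8 venous genes, 5 were higher at an unadjusted p under 0.05 and 0 lower, 2 lay higher without overlap, against the same shares over all genes, and the median was 2.71. Ephb4, the venous receptor for ephrin-B2, stood at 148, 142 and 124 CPM in positive HPSC, against 34.4, 13.9 and 45.3 CPM in negative HPSC (edgeR adjusted p = 0.248). Aplnr, the apelin receptor of venous endothelium, was 2582 CPM in the positive fresh library, against 41.2 CPM in the negative one, and after cyclopamine 39.0 CPM in the positive library, against 0.377 CPM in the negative one. Nr2f2, the regulator of venous identity, stood at 324, 47.7 and 91.5 CPM in positive HPSC, against 156, 29.6 and 76.9 CPM in negative HPSC, which overlap.

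**Figure D2:**
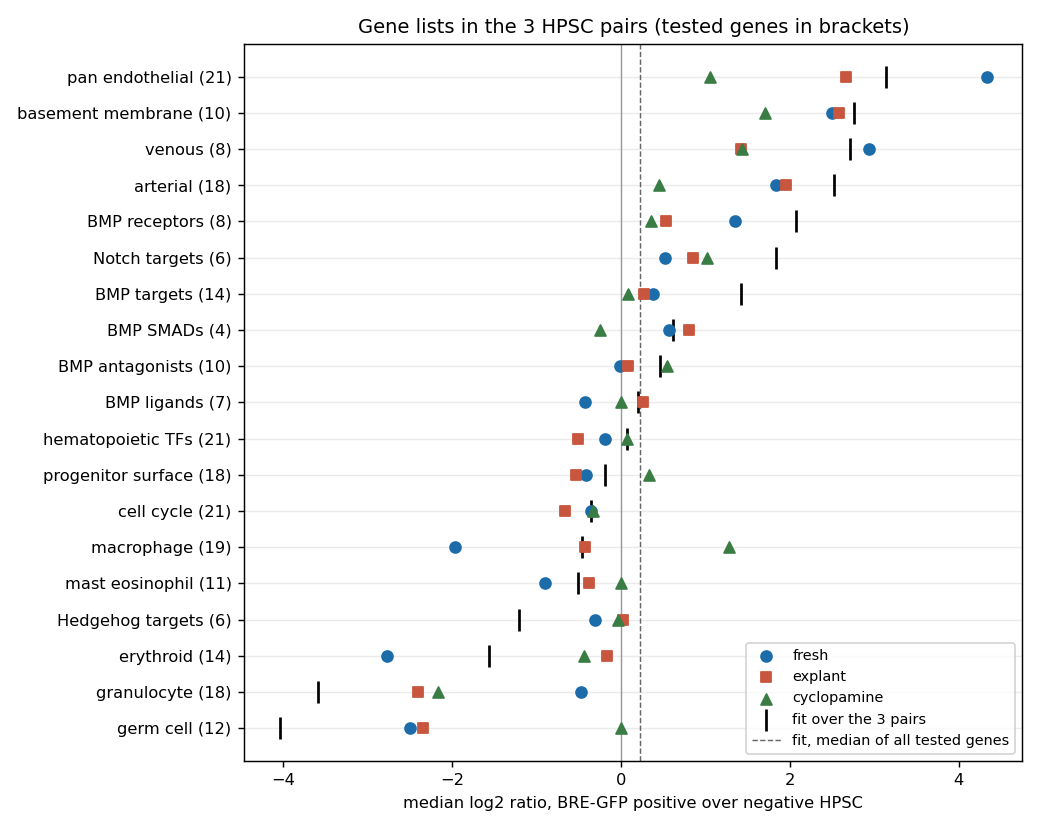
Median log2 ratio of BRE-GFP positive over negative HPSC for 19 gene lists in each culture (symbols, from CPM + 5) and in the fit over the 3 pairs (black bars, with no added CPM, so that genes with few reads weigh more); the dashed line is the median of all tested genes, 0.23. Pan-endothelial genes had pair medians of 4.34 fresh, 2.67 explant and 1.05 cyclopamine, while the macrophage list changed side between cultures.

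The genes of the BMP pathway itself had no single direction. Among the receptors, Acvrl1 (ALK1), the type I receptor of endothelium for BMP9 and BMP10, stood at 51.2, 129 and 54.1 CPM in positive HPSC, against 16.1, 17.8 and 0.377 CPM in negative HPSC (log2 fold change 3.40 ± 1.31 (SE), edgeR adjusted p = 0.572). Bmpr1a, the widely expressed type I receptor, stood at 1.56, 16.6 and 61.1 CPM in positive HPSC, against 33.3, 70.2 and 30.9 CPM in negative HPSC, lower in the fresh and explant pairs and higher after cyclopamine. Of the 8 receptor genes, 1 was higher at an unadjusted p under 0.05 and 0 lower (5.74% and 1.86% of all tested genes), and 2 lay higher without overlap, Acvrl1 and Acvr2a (7.65%). These counts are too small to set the receptors apart from all genes. Smad1, a signal transducer phosphorylated by these receptors, stood at 137, 239 and 131 CPM in positive HPSC, against 19.08, 30.3 and 85.2 CPM in negative HPSC (edgeR adjusted p = 0.416). Smad5 overlapped between fractions, with a log2 fold change of 0.53 ± 0.51 (SE).

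Among the ligands, Bmp4, the ligand expressed under the dorsal aorta, was scarce, at 37.9, 5.28 and 6.47 CPM in positive HPSC, against 7.17, 0.159 and 0.754 CPM in negative HPSC (log2 fold change 3.38 ± 0.94 (SE), edgeR adjusted p = 0.353). It was higher in the positive library of each pair, yet the negative fresh level lay above the positive explant and positive cyclopamine levels. Bmp7, another ligand, stood at 0, 0.200 and 0 CPM in positive HPSC, against 2.81, 11.4 and 0.377 CPM in negative HPSC, most of it in the negative explant library. Of the extracellular modulators, Fstl1 was abundant and stood at 1293, 1264 and 1011 CPM in positive HPSC, against 523, 357 and 496 CPM in negative HPSC (edgeR adjusted p = 0.440), and Crim1, which binds BMPs at the cell surface, stood at 41.5, 66.1 and 30.9 CPM in positive HPSC, against 13.0, 14.1 and 2.64 CPM in negative HPSC (edgeR adjusted p = 0.499). The antagonist genes Nog and Chrd were under 2 CPM in all 6 libraries.

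BMP target genes lay on both sides. Of 14 target genes, 0 passed over all genes. At an unadjusted p under 0.05, 2 were higher (Bambi and Hey1) and 1 was lower (Id2), against 5.74% and 1.86% of all tested genes. Without overlap, 5 lay higher and 1 lower (7.65% and 5.21%). In all 3 pairs alike, 8 of the 14 were higher and 1 lower, against 2268 and 1752 of the 16231 tested genes. The median log2 fold change was 1.42, or 1.30 with genes at 0 in a fraction set to their bound. Id1, whose promoter gave the reporter element, stood at 2.15, 29.8 and 14.5 CPM in positive HPSC, against 17.4, 26.3 and 15.8 CPM in negative HPSC, which overlap (log2 fold change -0.89 ± 0.83 (SE), edgeR adjusted p = 0.808). Id2, which encodes an inhibitor of basic helix-loop-helix factors, was lower, at 215, 199.7 and 373 CPM in positive HPSC, against 444, 411 and 885 CPM in negative HPSC. All 3 positive libraries lay below all 3 negative ones, with the positive cyclopamine level close to the negative explant level (log2 fold change -1.11 ± 0.29 (SE), edgeR adjusted p = 0.290). Id3 stood at 299, 242 and 251 CPM in positive HPSC, against 156, 113 and 239 CPM in negative HPSC, higher without overlap but nearly equal after cyclopamine (edgeR adjusted p = 0.686). Bambi, a decoy receptor induced by BMP, stood at 31.5, 23.3 and 14.6 CPM in positive HPSC, against 5.81, 4.93 and 0 CPM in negative HPSC (log2 fold change 3.32 ± 1.31 (SE), edgeR adjusted p = 0.588). Msx1, Msx2 and Dlx5 were under 2 CPM in all 6 libraries.

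**Figure D3:**
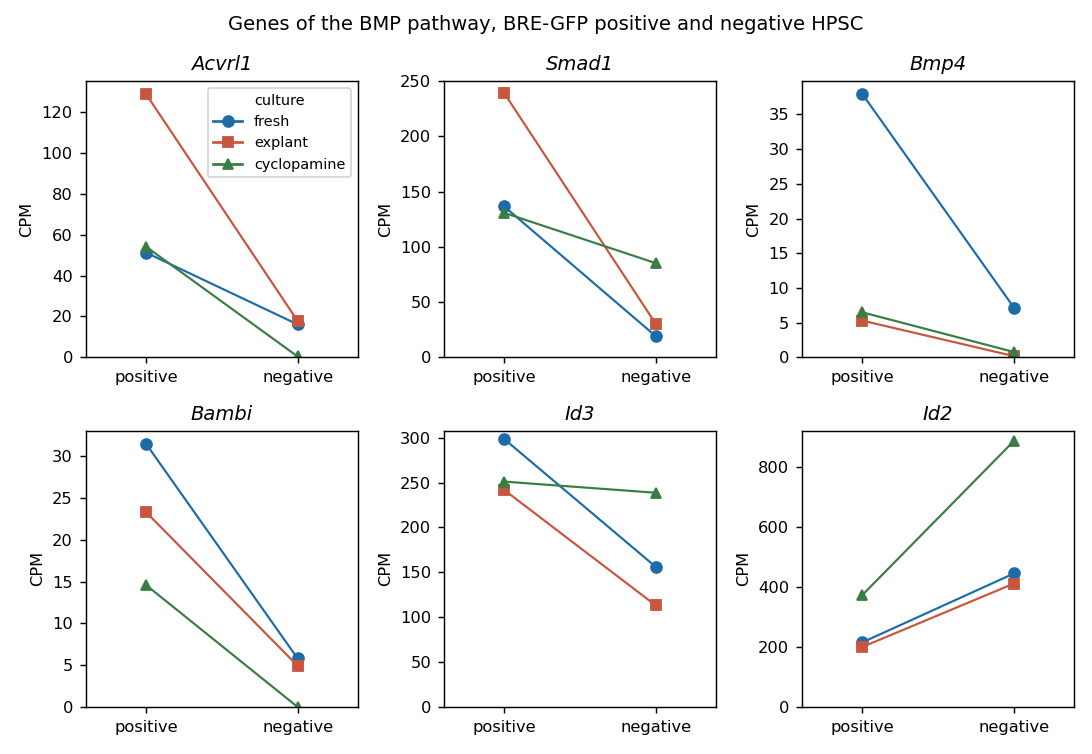
Level in CPM (linear axis from 0) of 6 genes of the BMP pathway in BRE-GFP positive (left) and negative (right) HPSC; each line joins the 2 libraries of 1 culture. Acvrl1, Smad1, Bambi and Id3 lie higher in all 3 positive libraries than in any negative one, Bmp4 is higher within each pair, and Id2 is lower in positive HPSC in each pair.

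Of the Hedgehog target genes, which cyclopamine acts on through Smoothened, Ptch1, the receptor that Hedgehog signalling induces, stood at 15.7, 12.02 and 10.3 CPM in positive HPSC, against 26.4, 50.6 and 10.9 CPM in negative HPSC, and Gli1 was under 1 CPM in the 3 positive libraries, against 12.8, 3.66 and 0 CPM in negative HPSC. The 2 cyclopamine libraries had about equal Ptch1, and the wider gap was in the explant pair. Of the 6 Hedgehog target genes, 1 was lower at an unadjusted p under 0.05 (1.86% of all tested genes), Foxf1a. It stood at 0, 0 and 0 CPM in positive HPSC, against 0, 0.477 and 12.8 CPM in negative HPSC, nearly all of it in the negative cyclopamine library. Among the 6 tested Notch target genes, 2 were higher at an unadjusted p under 0.05 (5.74% of all tested genes), Hey1 and Heyl, both bHLH repressors induced by Notch. Hey1 stood at 14.7, 74.7 and 48.8 CPM in positive HPSC, against 8.14, 11.4 and 0.754 CPM in negative HPSC, and Hes1 overlapped.

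Hematopoietic transcription factors had no direction as a list. Of 21 such genes, at an unadjusted p under 0.05, 1 was higher and 1 lower, shares near those of all tested genes (5.74% and 1.86%), with a median log2 fold change of 0.08. Without overlap, 5 lay higher and 2 lower (7.65% and 5.21% of all tested genes). In all 3 pairs alike, 6 of the 21 were higher and 7 lower, against 2268 and 1752 of the 16231 tested genes. Mecom (Evi1), a regulator of hematopoietic stem cells that is also made by endothelium, stood at 53.5, 163 and 143 CPM in positive HPSC, against 14.2, 43.9 and 0 CPM in negative HPSC (log2 fold change 3.30 ± 1.37 (SE), edgeR adjusted p = 0.617). Meis1, a Hox cofactor of stem cells, stood at 145, 104 and 245 CPM in positive HPSC, against 285, 208 and 341 CPM in negative HPSC (edgeR adjusted p = 0.627). Mecom was thus higher and Meis1 lower in positive HPSC in every culture. Runx1, which is needed for blood cells to form from endothelium, stood at 34.3, 35.7 and 57.2 CPM in positive HPSC, against 50.6, 60.0 and 172 CPM in negative HPSC, lower in each pair but with overlap (edgeR adjusted p = 0.840). Myb, which definitive progenitors need, stood at 49.2, 38.5 and 121 CPM in positive HPSC, against 135, 169.9 and 139 CPM in negative HPSC, with no overlap (edgeR adjusted p = 0.799). The stem cell factor Hlf overlapped, at 49.9, 31.3 and 57.3 CPM in positive HPSC, against 13.5, 56.9 and 71.7 CPM in negative HPSC.

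Of 18 progenitor surface genes, 2 were higher at an unadjusted p under 0.05 and 0 lower (5.74% and 1.86% of all tested genes). Both of the higher genes are also found on endothelium. Cd34 stood at 804, 955 and 649 CPM in positive HPSC, against 348, 338 and 261 CPM in negative HPSC (log2 fold change 1.34 ± 0.32 (SE), edgeR adjusted p = 0.265), and Cd93 at 869, 1642 and 1093 CPM in positive HPSC, against 24.5, 318 and 764 CPM in negative HPSC (edgeR adjusted p = 0.469). In Cd34 the fractions did not overlap, whereas the negative cyclopamine level of Cd93 came near the positive ones. Spn, which encodes CD43, stood at 0.120, 18.03 and 35.2 CPM in positive HPSC, against 64.0, 53.2 and 152 CPM in negative HPSC, and Ptprc, which encodes the leukocyte antigen CD45, at 87.2, 127 and 350.1 CPM in positive HPSC, against 369.6, 389 and 186 CPM in negative HPSC. Ptprc was lower in the fresh and explant pairs and higher in the cyclopamine pair. Itga2b (CD41) and Csf1r, the receptor for the macrophage growth factor, were also lower in the fresh and explant pairs and higher after cyclopamine. In the cyclopamine pair the positive library held 79.4 CPM of Itga2b, against 1.13 CPM in the negative one, and 941 CPM of Csf1r, against 52.8 CPM. Of 21 cell cycle genes, at an unadjusted p under 0.05, 0 were higher and 2 lower (5.74% and 1.86% of all tested genes), with a median log2 fold change of -0.36.

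As a list, though not in every member, granulocyte genes were lower in positive HPSC, again without a single gene that passed. Of 18 granulocyte genes, 0 passed over all genes, 9 were lower at an unadjusted p under 0.05 (1.86% of all tested genes) and 7 were more than 2-fold lower in all 3 pairs (0.764%); these 7 also did not overlap (5.21%). The list's median log2 fold change was -3.58, with members from -7.31 to 4.16, and 10 of the 18 genes were lower in all 3 pairs. As log2 ratios of CPM + 5, the pair medians were -0.47 in fresh, -2.40 in explant and -2.17 in cyclopamine HPSC. Mpo, the myeloperoxidase of granulocyte precursors, stood at 809.7, 1618 and 1611 CPM in positive HPSC, against 4109, 9621 and 5527 CPM in negative HPSC (log2 fold change -2.23 ± 0.44 (SE), edgeR adjusted p = 0.117). S100a8, a subunit of calprotectin, stood at 0.120, 39.9 and 0.0911 CPM in positive HPSC, against 68.8, 455 and 194 CPM in negative HPSC, and its partner S100a9 at 0.120, 16.0 and 0.182 CPM in positive HPSC, against 29.8, 206 and 68.3 CPM in negative HPSC (edgeR adjusted p = 0.290 each). In both, the explant library was the highest of its fraction. The neutrophil protease genes Elane and Prtn3 and the bactericidal protein gene Pglyrp1 had log2 fold changes of -3.83, -2.77 and -4.33. The stefin genes Stfa1 and BC100530, with -4.70 and -6.89, have near-identical copies, so their counts are uncertain. Summed over the 18 genes, positive HPSC held 846, 1916 and 1726 CPM, against 4582, 11991 and 6991 CPM in negative HPSC.

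Other genes of leukocytes were among those named. Srgn, the granule proteoglycan serglycin, stood at 125, 209 and 384 CPM in positive HPSC, against 428, 574 and 1139 CPM in negative HPSC, and Arhgdib, a regulator of small GTPases in blood cells, at 605, 589.9 and 858 CPM in positive HPSC, against 1492, 1553 and 3258 CPM in negative HPSC (edgeR adjusted p = 0.290 each). Plac8, a gene of myeloid cells and progenitors, stood at 105, 134 and 117 CPM in positive HPSC, against 473, 492 and 1132 CPM in negative HPSC. Emb, an immunoglobulin family partner of monocarboxylate transporters, stood at 76.2, 88.5 and 53.7 CPM in positive HPSC, against 290.0, 277 and 246 CPM in negative HPSC (log2 fold change -1.92 ± 0.50 (SE), edgeR adjusted p = 0.304). For these 4 genes, chosen by low p and the same direction in 3 of 3 pairs, every positive library lay below every negative one (5.21% of all tested genes). Rimklb, Pmm1 and Crispld1 had log2 fold changes of -4.20, -2.45 and -3.33. Mast cell and eosinophil genes had no common side: of 11, at an unadjusted p under 0.05, 0 were higher and 1 lower (5.74% and 1.86% of all tested genes). The lower one was Prg2, a granule protein gene of eosinophils, at 153, 119 and 0 CPM in positive HPSC, against 492, 957 and 469 CPM in negative HPSC. The mast cell tryptase gene Tpsab1 lay the other way without passing, at 0, 6.61 and 14.2 CPM in positive HPSC, against 0, 0 and 0.377 CPM in negative HPSC.

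Macrophage genes changed side between cultures. Of 19, none was at an unadjusted p under 0.05 in either direction, and the pair medians, as log2 ratios of CPM + 5, were -1.96 in fresh, -0.42 in explant and 1.28 in cyclopamine HPSC. Of 14 tested erythroid genes, at an unadjusted p under 0.05, 0 were higher and 2 lower, Gata1 and Rhag (5.74% and 1.86% of all tested genes). Without overlap, 0 lay higher and 6 lower (7.65% and 5.21%), and the median log2 fold change was -1.56. Gata1, the master factor of red cells and megakaryocytes, stood at 19.6, 29.98 and 71.6 CPM in positive HPSC, against 125, 98.2 and 436 CPM in negative HPSC (log2 fold change -2.33 ± 0.69 (SE), edgeR adjusted p = 0.385). Over the list, the erythroid sum was 1921, 8183 and 6833 CPM in positive HPSC, against 15550, 8930 and 11678 CPM in negative HPSC, with the widest gap in the fresh pair.

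As a list, though not in every member, markers of primordial germ cells, which share CD31 and Kit with HPSC, were lower in the positive fraction. Of 12 tested germ cell genes, 0 passed over all genes, 7 were lower at an unadjusted p under 0.05 (1.86% of all tested genes) and 0 higher, and 4 were more than 2-fold lower in all 3 pairs (0.764%), with a median log2 fold change of -4.04. The pair medians, as log2 ratios of CPM + 5, were -2.50 in fresh, -2.34 in explant and 0 in cyclopamine HPSC. Only 5 of the 12 genes were lower in all 3 pairs, against 1752 of the 16231 tested genes. Dazl, a germ cell RNA-binding protein gene, stood at 0, 20.9 and 39.9 CPM in positive HPSC, against 52.5, 428 and 272 CPM in negative HPSC (edgeR adjusted p = 0.339). Dppa3 (Stella) stood at 0, 7.55 and 33.2 CPM in positive HPSC, against 113, 175 and 71.7 CPM in negative HPSC, and Ddx4, the Vasa helicase gene, at 0, 15.4 and 33.6 CPM in positive HPSC, against 54.2, 120.2 and 136 CPM in negative HPSC. All 3 of these genes were at 0 in the positive fresh library. Pou5f1 (Oct4) was 0, 0.467 and 0 CPM in positive HPSC, against 31.7, 25.7 and 0 CPM in negative HPSC, and like Nanog it was at 0 in both cyclopamine libraries. Gpat2, an acyltransferase that acts in the piRNA pathway of germ cells, stood at 0, 0.134 and 1.28 CPM in positive HPSC, against 18.3, 58.6 and 53.6 CPM in negative HPSC (log2 fold change -7.58 ± 1.77 (SE), edgeR adjusted p = 0.247). Over the 12 genes the sum was 2.15, 60.1 and 139 CPM in positive HPSC, against 412, 899 and 532 CPM in negative HPSC, and the part of these cells in the other differences between fractions was not tested.

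**Figure D4:**
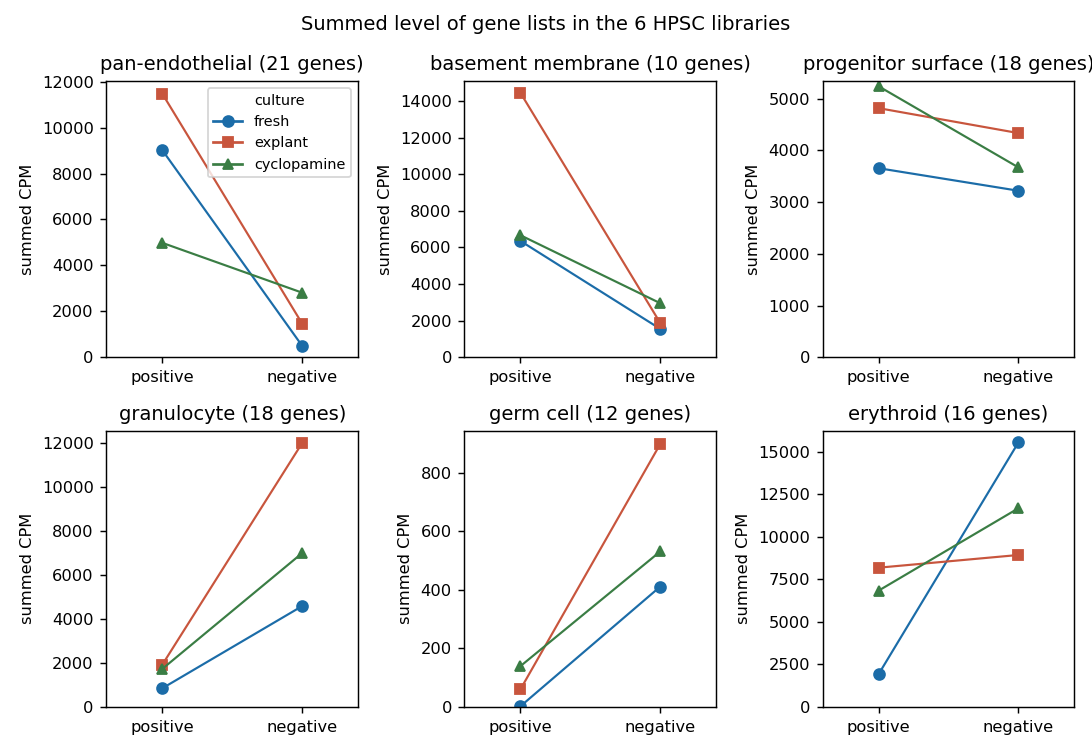
Summed CPM of 6 gene lists in BRE-GFP positive (left) and negative (right) HPSC, on linear axes from 0; each line joins the 2 libraries of 1 culture. Pan-endothelial and basement membrane sums are higher, and granulocyte and germ cell sums lower, in the positive library of every culture, with the smallest pan-endothelial gap after cyclopamine.

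The 3 cultures did not give equal differences. Genes entered this count when either library of the pair held 50 counts and 20 CPM or more, and ratios were taken of CPM + 5. Of these, 1620 of 8504 were more than 2-fold higher (19.0%) and 1501 lower (17.7%) in positive fresh HPSC. The explant pair had 1146 (13.5%) and 1032 (12.2%) of 8464, and the cyclopamine pair, which holds the shallowest library, 2883 (34.0%) and 2302 (27.1%) of 8484. With 1 library a fraction, these counts are descriptions without a replicate check. Across 9951 genes, the log2 ratios of the fresh and explant pairs had a Pearson r of 0.43, those of fresh and cyclopamine 0.12 and those of explant and cyclopamine 0.08, where genes are not independent and each pair shares its depth over all genes. In all 3 pairs alike, 368 genes were more than 2-fold higher (2.27% of all tested genes) and 124 more than 2-fold lower (0.764%). Of these, 330 and 108 also did not overlap between fractions (7.65% and 5.21% of all tested genes). A 2-fold gap in every pair itself favours this, so it is not separate evidence. With all 6 libraries thinned to the depth of the shallowest, 348 genes were more than 2-fold higher and 122 more than 2-fold lower in all 3 pairs. Thinned in this way, the libraries showed 11982, 16595 and 12488 genes in positive HPSC, against 13064, 14194 and 10297 in negative HPSC.

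The BRE-GFP fractions of EC and MC were set beside those of HPSC. In EC, 2 of 16231 genes passed between positive and negative cells, Cd34 and Mpo (0.0123%; edgeR; 696 at an unadjusted p under 0.05, 4.29%), and in MC none did (0%; 70, 0.431%). No gene passed the test of the difference between the BRE-GFP effects of HPSC and EC (0 of 16231, 0%; edgeR; 430 at an unadjusted p under 0.05, 2.65%), nor of HPSC and MC (0 of 16231, 0%; 656, 4.04%). DESeq2 called 87 and 156 for these differences, and limma-voom 0 and 0. Of the 368 genes more than 2-fold higher in all HPSC pairs, 59 were so in all EC pairs, which is 16.0% of the HPSC genes and 31.9% of the 185 EC genes (1.14% of tested genes). Of the 124 lower genes, 18 were shared, 14.5% of the HPSC genes and 14.2% of the 127 EC genes (0.782%). In MC, 7 genes were higher (0.0431%) and 15 lower (0.0924%) by this rule, and 1 and 4 of them were shared with HPSC.

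Endothelial and granulocyte lists lay on the same side in EC as in HPSC. The median log2 fold change of the pan-endothelial genes was 3.14 in HPSC, against 2.27 in EC and 0.22 in MC, that of granulocyte genes -3.58 in HPSC, against -4.49 in EC and -3.37 in MC, and that of germ cell genes -4.04 in HPSC, against -3.90 in EC and -0.93 in MC. Granulocyte genes were scarce in MC, where the pair medians of log2 ratios of CPM + 5 were only -0.38, -0.78 and -0.49. Their fresh sum in MC lay the other way, at 51.5 CPM in positive cells, against 33.9 CPM in negative cells. Of the 21 pan-endothelial genes, 1 had an unadjusted p under 0.05 for the difference between HPSC and EC, and 11 for that between HPSC and MC. In EC, too, the summed level was nearest between fractions after cyclopamine, at 11707, 7189 and 2223 CPM in positive EC, against 789, 1380 and 1736 CPM in negative EC.

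The 6 genes that rose in HPSC were chosen by their effect there, which favours a smaller effect elsewhere, so their values in EC and MC are given as a description. Arhgap31 had a log2 fold change of 4.06 in HPSC, against 0.62 ± 0.53 (SE) in EC (difference 3.44 ± 0.76, edgeR adjusted p = 1.0). Negative EC held more Arhgap31 than negative HPSC, with a mean of 126 CPM in positive EC, against 79.4 CPM in negative EC (SD 82.4 and 41.1, n = 3 each). Bgn was at 3.94 in HPSC, against 1.13 ± 0.52 (SE) in EC, Klhl4 at 5.11, against 2.69, Nid1 at 2.84, against 1.52, and Mest at 2.45, against 1.09. All 6 differences from EC had an edgeR adjusted p of 1.0. Clec1a was at 10.43 in HPSC, against 2.20 in EC, where positive cells averaged 47.5 ± 41.0 CPM and negative cells 15.03 ± 17.7 CPM (SD, n = 3 each). For Klhl4 the difference from MC had the lowest p of all genes, at 5.11 in HPSC, against -0.70 ± 0.57 (SE) in MC (edgeR adjusted p = 0.207).

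**Figure D5:**
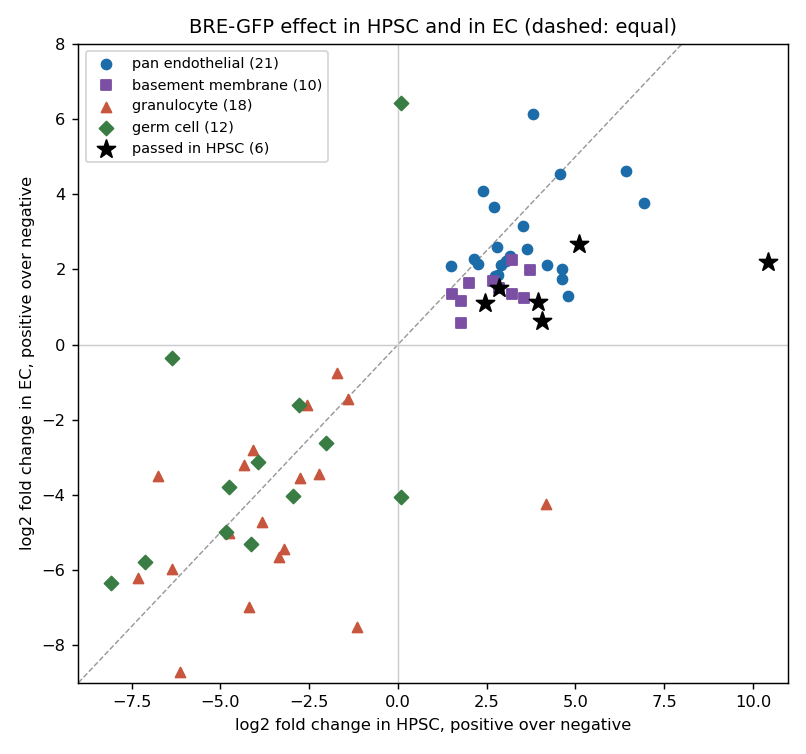
Fitted log2 fold change of BRE-GFP positive over negative cells in HPSC (horizontal) and in EC (vertical) for the tested genes of 4 lists and the 6 genes that passed in HPSC (stars); the dashed line marks equal effects. The 6 stars lie below the line, with Clec1a at 10.43 in HPSC and 2.20 in EC, and no gene passed the test of the difference.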

How the data were processed

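RNA from sorted cells was sequenced in 18 libraries, 6 of them HPSC. The authors deposited 1 table of raw read counts per gene symbol for each library; TopHat, Cufflinks and HTSeq, with the mm10 build, are named per the submitters' processing notes, with the annotation, strand setting and tool versions not given in the sources used here. Per the labels' protocols, RNA was extracted with a mirVana kit and amplified with SMARTER chemistry. Lines for unassigned reads were left out of totals and tests.

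Counts were scaled by TMM and tested with edgeR 4.0.16 (R 4.3.3) by its quasi-likelihood test, with a term for each of the 9 pairs of population and culture and 1 BRE-GFP effect per population, over all 18 libraries (6 residual degrees of freedom, biological coefficient of variation 0.884). A gene was tested with at least 0.796 CPM in 3 libraries (16231 of 21881). Adjusted p-values are Benjamini-Hochberg values over all tested genes. Fitted fold changes use edgeR's default prior count of 0.125, their SE is the size of the fold change over the root of F, and ratios within a pair use CPM + 5. A bound on a fraction at 0 uses 3 counts over its libraries together. DESeq2 1.42.0 and limma 3.58.1 were alternatives. Only 19570 symbols match 1 gene of GENCODE M21, whose coordinates are printed.

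Named genes are those with an adjusted p under 0.05 and a mean of at least 10 CPM in 1 fraction, filled to 15 a direction with genes of lowest p, a mean of at least 20 CPM and the same direction in 3 of 3 pairs; other genes are members of 32 gene lists (399 symbols, 380 tested, 13 too low, 6 not in the tables). Members, lists and tests were chosen with earlier results of these data known. Counts between HPSC libraries differed by far more than sampling noise (chi-square per degree of freedom 90.2 to 208), so none was taken as a repeat of another. Intervals cover counting error only.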

Additional observations from a re-analysis of the deposited data

Results flagged for a closer look

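In 5 results the BRE-GFP effect pointed one way in all 3 HPSC pairs and the other way in all 3 MC pairs. The edgeR test of the difference between HPSC and MC passed no gene, and a difference between list medians was not tested. Clec1a had a log2 fold change of 10.43 in HPSC, against -1.67 ± 1.28 (SE) in MC. It was nearly absent from MC, with means of 0.393 CPM in positive and 0.853 CPM in negative cells (SD 0.567 and 0.691), so its direction there rests on few reads. Klhl4 had 5.11 in HPSC, against -0.70 in MC. Plac8 had -2.44 in HPSC, against 1.15 in MC, and Arhgdib had -1.54 in HPSC, against 0.66 in MC. For the 8 BMP receptor genes the median was 2.08 in HPSC, against -0.40 in MC.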

How the results depend on the processing

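The count of genes that passed between BRE-GFP positive and negative HPSC, 6 in the reported fit, moved with the method. It was 7 with DESeq2-type size factors, 96 with no filter on low counts, 929 with DESeq2 (725 higher and 204 lower) and 51 with limma-voom. It was 15 with the 6 HPSC libraries alone and culture as a replicate block, 0 for the same 6 without that pairing (lowest edgeR adjusted p 0.0556), 0 with the share of reads on no feature as a covariate (0.401) and 0 without both cyclopamine libraries (0.126). Without any 1 of the HPSC libraries it was 0 to 0, with 993 to 1430 genes at an unadjusted p under 0.05. All 6 genes kept their direction in every fit. The cause of these shifts was not tested. The differences from EC and MC had 0 genes except with DESeq2, 87 and 156, and for MC with no filter, 13. Genes past 2-fold in all 3 pairs numbered 565 higher and 204 lower with CPM + 1, and 162 and 41 with CPM + 20. With CPM + 20 the fresh pair had 1074 higher and 997 lower, and the explant pair 759 and 499. Thinning to equal depth and dropping both cyclopamine libraries were chosen after seeing the data. For single named genes, 307 results stayed on their side of the threshold, 57 newly passed, 56 no longer passed and 0 turned direction. The negative cyclopamine library, with 3041249 counts, limits what its pair can show for low genes.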

Other observations

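Genes of 3 further groups were put together after their values had been seen and are only described, and none of their members passed over all genes. Of 9 caveola genes, 4 were more than 2-fold higher in all 3 pairs (2.27% of all tested genes) and 5 were not, and the median log2 fold change was 2.59. Cav1, the caveolin of endothelium, stood at 279, 1633 and 445 CPM in positive HPSC, against 13.9, 147 and 201 CPM in negative HPSC. Ehd2, which stabilises caveolae at the membrane, stood at 150.1, 325 and 129 CPM in positive HPSC, against 6.68, 21.9 and 2.64 CPM in negative HPSC. Pacsin2, also a caveola protein gene, overlapped, at 55.4, 104 and 111 CPM in positive HPSC, against 92.2, 106 and 30.2 CPM in negative HPSC. Of 16 tested genes that silence transposons in the germ line, 4 were more than 2-fold lower in all 3 pairs (0.764% of all tested genes), Gpat2, Fkbp6, Rnf17 and Tex19.1. Rnf17 stood at 7.18, 6.68 and 9.66 CPM in positive HPSC, against 49.7, 70.6 and 35.4 CPM in negative HPSC. Of 14 genes common to leukocytes, 4 were more than 2-fold lower in all 3 pairs (0.764% of all tested genes), Cd52, Rac2, Arhgdib and Srgn. Rac2, a GTPase of blood cells, stood at 486, 379 and 671 CPM in positive HPSC, against 1129, 921 and 1647 CPM in negative HPSC. Hcls1, Vav1, Lcp1, Coro1a, Laptm5, Ptpn6 and Itgb2 changed side, lower in the fresh and explant pairs and higher after cyclopamine. In the cyclopamine pair Hcls1 stood at 146 CPM in the positive library, against 4.15 CPM in the negative one.

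Lists of other cell types and states held few genes at an unadjusted p under 0.05, a level that 5.74% of all tested genes reached higher and 1.86% lower. Of 9 tested urogenital genes 2 were higher, Wt1 and Gata4, and 0 lower, yet the list's median log2 fold change was -2.19. Summed, the urogenital list held 44.8, 48.0 and 43.6 CPM in positive HPSC, against 64.6, 54.8 and 19.2 CPM in negative HPSC. Wt1, a factor of mesothelium and kidney precursors, stood at 25.4, 34.6 and 25.9 CPM in positive HPSC, against 8.43, 4.13 and 10.6 CPM in negative HPSC, and Gata4, a factor of heart, gonad and lateral mesoderm, at 17.4, 2.07 and 0.0911 CPM in positive HPSC, against 0.0969, 0 and 0 CPM in negative HPSC. Gata4 was thus mostly in the positive fresh library. Of 13 mesenchymal genes 3 were higher and of 8 smooth muscle genes 0, of 13 megakaryocyte genes 2 were higher (Vwf and Clec1b), and of 6 tested lymphoid genes 0 differed. Slc2a1, the glucose transporter GLUT1, stood at 316, 557 and 298 CPM in positive HPSC, against 131, 230.0 and 64.1 CPM in negative HPSC and was the 1 of 13 tested glycolysis and hypoxia genes that was higher. None of 16 immediate early and 12 inflammatory genes differed at this level, of 7 tested cell cycle inhibitors 0 did and of 11 tested Hedgehog signalling components, 1 of which (Shh) had no reads in HPSC, 0 did. Of 10 neural crest genes, Hand2 was lower and Th, nearly absent, higher.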
